A study of Saccharomyces cerevisiae with 24 samples.

Results

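The 39 nuclear genes of budding yeast (Saccharomyces cerevisiae) that encode subunits of the respiratory chain and the mitochondrial ATP synthase were followed in a ribosome profiling study of Hel2. They were chosen by name from the gene identifiers in the deposited files, with earlier results of these data known, as the nuclear ATP, COX, QCR, COR, CYT, RIP, SDH and CYC genes, NDI1, and TIM11, the gene for subunit e of the ATP synthase. The 39 genes were found both among the 6663 transcripts of the HEL2-FTP files and among the 6696 genes of the count files. They comprise 14 genes of the ATP synthase (complex V), 9 of cytochrome c oxidase (complex IV), 9 of the cytochrome bc1 complex (complex III), 4 of succinate dehydrogenase (complex II), both cytochrome c genes and NDI1.

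The respiratory chain of the inner mitochondrial membrane carries electrons from NADH and succinate to oxygen, and the proton gradient it builds drives the ATP synthase. In this yeast NDI1, an NADH dehydrogenase made of a single polypeptide, stands in for the large complex I of other organisms. Some core subunits of complexes III and IV and of the complex V membrane sector are encoded in mitochondrial DNA and made by mitochondrial ribosomes. The subunits described here are instead made by cytosolic ribosomes and imported into the organelle. Hel2 is a ubiquitin ligase that binds collided ribosomes. A footprint level combines the amount of a message with its translation, which cannot be told apart in these libraries.

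The series holds 24 libraries in 12 groups of 2 replicates, and its stated subject is how Hel2 acts in the secretory pathway. All strains were MATa with the ade2, his3 and leu2 alleles, the trp1 and ura3 alleles and can1, and all carried HEL2-FTP::natNT2, Hel2 with an FTP tag at its own locus, so no strain without the tag served as a control and the share of unspecific footprints in an IP library is not known. The first strain, HEL2-FTP, had no other stated change. In the other strains the chromosomal SRP72 gene, for a protein of the signal recognition particle that guides secretory messages, was deleted (srp72::HISMX6) and SRP72-V5 was supplied from the plasmid pRS415 under the SRP72 promoter (libraries labelled SRP72p) or the GIT1 promoter (libraries labelled GIT1p). Exponential cultures in YPD, a rich glucose medium, were split into cytosol and membranes, with the latter dissolved in 1% Triton X-100. From both fractions all footprints were sequenced (input), as were those that came down with Hel2 in an immunoprecipitation (IP). The labels do not say whether replicates came from separate cultures, so p-values measure only the spread between these libraries.

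Levels are given as RPM (reads per 1000000) summed over the coding sequence in HEL2-FTP and as CPM (counts per 1000000) in the other strains. The tables were normalised separately, so no test was made between them. Count libraries held 2015928 to 13093023 counts, and the depth of the HEL2-FTP libraries was estimated at 22.1 to 38.9, in units of 1000000 reads. Together the 39 genes took 0.642% to 0.843% of the footprints of an input library and 0.365% to 0.578% of those of an IP library. The lowest value of any of them was 20 counts in the count files (ATP19, SRP72p membrane IP replicate 2) and 11.2 RPM in HEL2-FTP, and all 39 passed the filter on low values in every test of levels. Secretory marker genes were higher in the membrane than in the cytosolic inputs for 14, 13 and 13 of 14 genes in HEL2-FTP, SRP72p and GIT1p. The membrane inputs of both count strains held replicates that differed from each other. In SRP72p mitochondrially encoded genes took 0.815% of replicate 1 and 0.0402% of replicate 2, and 34 of the 39 genes were lower in replicate 1. In GIT1p these genes took 0.00363% of replicate 1 and 0.125% of replicate 2, and 16 of the 39 were lower in replicate 1.

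The libraries labelled SRP72p and GIT1p also differed from each other in marker genes. The labels give both strains the same deletion and the same plasmid backbone, yet LEU2, the selection marker of that plasmid, stood at 65.1 ± 6.61 CPM (SD, n = 2) in the SRP72p and 1982 ± 67.8 CPM in the GIT1p cytosolic inputs. HIS3 went the other way, from 552 ± 28.3 to 27.2 ± 2.11 CPM, and TRP1 from 78.1 ± 7.72 to 2.00 ± 0.622 CPM. In the HEL2-FTP cytosolic inputs, with no stated plasmid, LEU2, HIS3 and TRP1 stood at 34.1, 8.77 and 1.04 RPM. It was thus the SRP72p libraries, with low LEU2 and high HIS3 and TRP1, that departed from the stated plasmid and alleles. SRP72 itself stood at 143 and 142 CPM in the SRP72p and at 382 and 368 CPM in the GIT1p cytosolic inputs. Mitochondrially encoded genes took 0.437% and 0.279% of the SRP72p but 0.00277% and 0.00291% of the GIT1p cytosolic inputs, whereas they took 0.440% to 0.616% of the SRP72p and 0.481% to 0.944% of the GIT1p IPs. Their part in any result was not tested. These differences and the promoter label fall on the same libraries and cannot be told apart in any comparison between the labels.

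Levels of the 39 genes per codon spanned more than an order of magnitude in the HEL2-FTP cytosolic inputs. CYC1, the major cytochrome c, was first at 3.28 ± 0.162 RPM per codon (SD, n = 2), ahead of QCR8 of complex III at 2.29 RPM per codon. ATP1 and ATP2, the alpha and beta subunits that form the catalytic hexamer of the ATP synthase, stood at 1.77 ± 0.146 and 1.67 ± 0.0351 RPM per codon and did not differ beyond their spread, nor from COX4 at 1.71, COX6 at 1.70 and COX13 at 1.66. At the low end stood SDH4 at 0.389, SDH3 at 0.365, NDI1 at 0.325, SDH1 at 0.296 and COX5B at 0.216 RPM per codon. The order differed in the Hel2 IPs of the same fraction, where ATP2 was first at 2.64 RPM per codon, ATP1 followed at 1.46 and RIP1 and CYC1 stood at 1.02 and 1.00. COX5B and CYC7, the hypoxic isoforms of subunit V and of cytochrome c, were lowest there at 0.0827 and 0.109 RPM per codon. The median of the 39 genes in the cytosolic inputs was 0.970 RPM per codon, against 0.0564 for all 5532 genes tested.

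Hel2 IP was compared with input in each strain and fraction to ask which messages were over- or under-represented among the footprints recovered with Hel2. In the HEL2-FTP cytosol 34 of the 39 genes were lower in the IP and 2 were higher (limma, Benjamini-Hochberg adjusted p under 0.05). Over all 5532 genes tested, 35.6% were lower and 53.6% higher. The median log2 difference was -0.94 for the 39 genes and 0.34 for all genes. In the HEL2-FTP membrane fraction 32 were lower and 2 higher, with 43.0% and 45.4% over all genes and medians of -0.76 and 0.02. The SRP72p cytosol had 35 lower and none higher by edgeR's quasi-likelihood test, by DESeq2 and at an unadjusted edgeR p under 0.05, with 31.0% and 37.7% over all 5714 genes and medians of -1.41 and 0.11. In the SRP72p membrane fraction 36 were lower and 1 was higher, against 33.0% and 27.1%, with medians of -1.11 and -0.15. The GIT1p cytosol had 34 lower and none higher by the same 3 criteria, against 33.2% and 36.3%, with medians of -0.87 and -0.04. In the GIT1p membrane fraction 33 were lower and 1 was higher, against 37.2% and 25.2%, with medians of -0.81 and -0.24. The count of lower genes lay between 28 and 37 under every scaling tried. In the 6 comparisons together, 28 genes were lower in all, 3 in 5, and 8 in 4 or fewer. The matching counts over all genes are not given here, so how unusual these counts are cannot be judged.

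**Figure D1:**
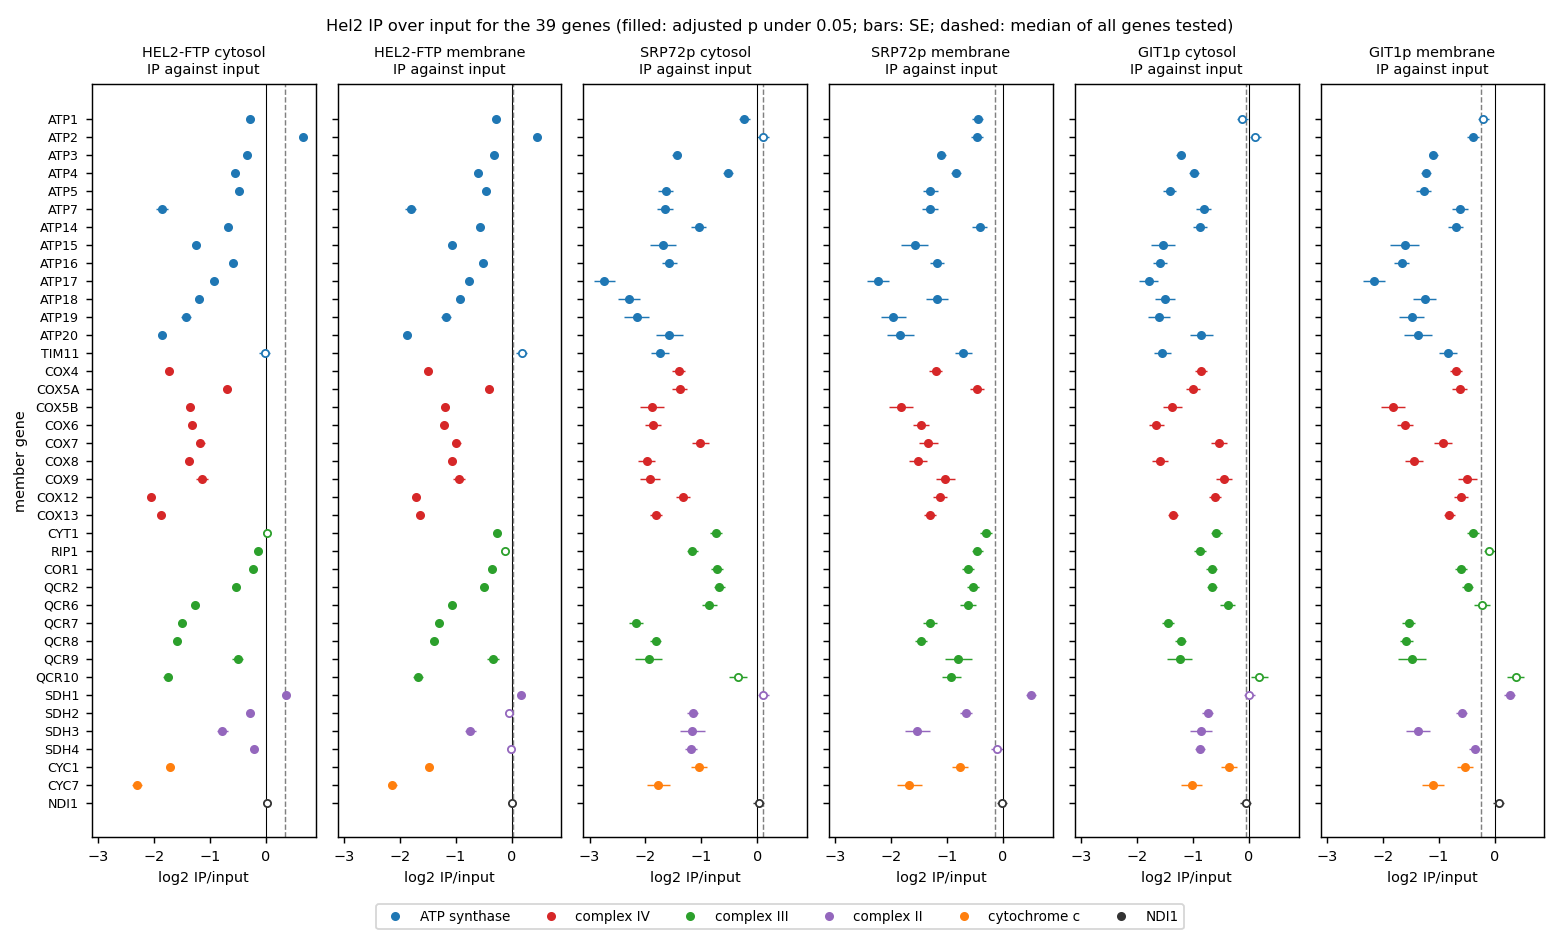
Log2 difference between Hel2 IP and input (horizontal axis) for each of the 39 genes (vertical axis, coloured by complex) in 6 panels, 1 per strain and fraction, with n = 2 libraries per group. Filled points have an adjusted p under 0.05, bars are standard errors of the fit, and the dashed line is the median of all genes tested. In the HEL2-FTP cytosol 34 points are filled on the lower side, and ATP2 (0.66) and SDH1 (0.37) are filled on the higher side.

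Cytochrome c oxidase passes electrons from cytochrome c to oxygen, and its nuclear subunits surround the core made inside mitochondria. All 9 of these genes were lower in the IP in each of the 6 comparisons, with medians between -1.81 (SRP72p cytosol) and -0.81 (GIT1p membrane). COX12 (YLR038C, 83 codons), the gene for subunit VIb, which faces the intermembrane space, stood at 123 and 128 RPM in the HEL2-FTP cytosolic inputs and at 30.9 and 28.7 RPM in the IPs. Every IP value lay below every input value, and the log2 difference was -2.05 ± 0.057 (SE, limma adjusted p = 7e-12). COX13, the gene for subunit VIa, fell from 205 and 225 RPM to 56.8 and 59.6 RPM, a log2 difference of -1.87 ± 0.055 (limma adjusted p = 1e-11). COX4, a structural subunit whose presequence is a classic mitochondrial import signal, had 270 and 260 RPM in input and 79.1 in both IPs, again without overlap. In the SRP72p cytosol COX4 stood at 209 and 211 CPM in input and 68.8 and 83.7 CPM in IP, and in the GIT1p cytosol at 234 and 218 CPM against 103 and 92.6 CPM. COX5A (YNL052W, chromosome XIV from 531725 to 532186) and COX5B (YIL111W, chromosome IX from 155222 to 155765, with an intron) encode forms of subunit V. These forms are alternatives, used with and without ample oxygen. COX5A was the complex IV gene with the smallest difference in the HEL2-FTP cytosol, at 147 and 168 RPM in input and 92.7 and 102 RPM in IP. COX5B went from 33.4 and 31.9 RPM to 12.5 and 12.4 RPM, and both isoforms were lower in all 6 comparisons. Reads shared by such close copies may have been split or lost in the authors' counting, so the values of COX5A and COX5B, CYC1 and CYC7, SDH1 and YJL045W, SDH3 and SHH3, SDH4 and SHH4, and NDI1 and NDE1 are uncertain to that extent.

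Both cytochrome c genes, whose products shuttle electrons from complex III to complex IV, were lower in all 6 comparisons. By RefSeq annotation of assembly R64, CYC1 (YJR048W) lies on chromosome X from 526335 to 526664 and CYC7 (YEL039C) on chromosome V from 79636 to 79977. CYC7 showed the lowest ratio of the 39 genes in both HEL2-FTP fractions. It stood at 65.2 and 59.6 RPM in the cytosolic inputs and at 13.3 and 11.2 RPM in the IPs, a log2 difference of -2.30 ± 0.084 (limma adjusted p = 7.1e-11). CYC1 stood at 370 and 345 RPM in input and at 113 and 106 RPM in IP, a log2 difference of -1.71 ± 0.057. The groups did not overlap for either gene. In the GIT1p cytosol the IP values were 143 and 110 CPM for CYC1 against inputs of 210 and 205 CPM, a log2 difference of -0.36 (edgeR adjusted p = 0.035), and 66.1 and 66.5 CPM for CYC7 against 179 and 166 CPM. The medians of both genes ran from -2.00 in the HEL2-FTP cytosol to -0.69 in the GIT1p cytosol, in tables that were normalised separately.

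Of the 14 ATP synthase genes, 12 to 14 were lower in each comparison. The enzyme has a catalytic F1 head, here ATP1, ATP2, ATP3, ATP15 and ATP16, and a stalk and membrane sector with the other 9. The F1 genes had medians of -0.33 and -0.31 in the HEL2-FTP cytosol and membrane fraction and of -1.44, -1.11, -1.22 and -1.09 in the other 4 comparisons (SRP72p cytosol and membrane, GIT1p cytosol and membrane). The stalk and membrane genes had medians of -0.94 and -0.76, and of -1.65, -1.30, -1.42 and -1.25. The lowest ratios belonged to ATP17, the gene for subunit f of the membrane sector, in each of the SRP72p and GIT1p comparisons. ATP17 stood at 172 and 160 CPM in the SRP72p cytosolic inputs and at 21.9 and 25.7 CPM in the IPs, a log2 difference of -2.74 ± 0.19 (edgeR adjusted p = 1.7e-08). The next largest differences there were those of ATP18, the gene for subunit i, at -2.29 ± 0.2, and of QCR7 of complex III at -2.17 ± 0.12. In the membrane fractions ATP19, the gene for subunit k, was at -1.96 and ATP20, the gene for subunit g, at -1.84 in SRP72p. The HEL2-FTP membrane fraction had ATP20 at -1.87 and ATP7, the gene for stalk subunit d, at -1.81.

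The subunits of the F1 head are needed in fixed proportions, yet their genes did not share a ratio. ATP2 (YJR121W, chromosome X from 647607 to 649142 in R64) was the gene with the largest rise in the HEL2-FTP IPs, from 839 and 864 RPM to 1319 and 1381 RPM in the cytosol, with every IP above every input (log2 0.66 ± 0.046, limma adjusted p = 2.8e-08). In the membrane fraction it went from 1058 and 1043 RPM to 1440 and 1454 RPM (log2 0.46 ± 0.046, limma adjusted p = 1e-06). ATP1 moved the other way, from 909 and 1022 RPM to 757 and 836 RPM in the cytosol (log2 -0.28 ± 0.065, limma adjusted p = 0.0016). ATP3, the gamma subunit that turns inside the hexamer, went from 266 and 268 RPM to 213 in both IPs. Per codon, ATP2 footprints were 1.94 ± 0.0296 times those of ATP3 in the HEL2-FTP cytosolic inputs (SD, n = 2) and 3.86 ± 0.120 times in the IPs, while ATP1 per ATP3 stood at 2.06 ± 0.158 and 2.13 ± 0.147. ATP16 per ATP3, delta over gamma, stood at 1.31 in input and 1.10 in IP, and ATP15 per ATP3, epsilon over gamma, at 1.06 and 0.552. The ratio of ATP2 to ATP3 in the SRP72p cytosol was 1.81 in input and 5.33 ± 0.839 in IP. There ATP2 itself stood at 822 and 789 CPM in input and 894 and 774 CPM in IP, which overlapped (log2 0.10 ± 0.1, edgeR adjusted p = 0.38), while ATP3 stood at 275 and 266 CPM in input and 92.0 and 99.7 CPM in IP (log2 -1.44 ± 0.082, edgeR adjusted p = 2.8e-09). In the membrane fractions of both strains ATP2 was lower in the IP, from 920 and 1017 CPM to 628 and 633 CPM in SRP72p (log2 -0.47 ± 0.1, edgeR adjusted p = 0.0014) and at -0.39 in GIT1p (edgeR adjusted p = 0.0048), a call that was lost with DESeq2 (-0.17). The direction for ATP2 at the membrane was therefore opposite in the RPM and the count tables.

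Complex III passes electrons from ubiquinol to cytochrome c. Of its 9 genes 6 to 9 were lower in each comparison, with medians from -0.86 to -0.48. In the HEL2-FTP cytosol its smallest differences were those of CYT1, RIP1 and COR1. CYT1, which encodes cytochrome c1, stood at 206 and 187 RPM in input and 200 and 198 RPM in IP, which overlapped (log2 0.02 ± 0.062, limma adjusted p = 0.78, and -0.43 with median centring). RIP1, which encodes the Rieske iron-sulfur protein, stood at 248 and 232 RPM in input and 219 and 218 RPM in IP, and its call was lost without cytosolic input replicate 1 or either IP replicate. COR1, which encodes a core protein, went from 373 and 376 RPM to 315 and 324 RPM. COR1 was lower in all 6 comparisons, at -0.23, -0.35, -0.72, -0.63, -0.66 and -0.60. The small subunits QCR7 and QCR8 were at -1.51 and -1.58 in the HEL2-FTP cytosol. QCR10, the gene for a small peripheral subunit, differed between the tables, with 69.8 and 78.9 RPM in input and 19.7 and 23.7 RPM in IP in the HEL2-FTP cytosol (log2 -1.76 ± 0.087) but 87.9 and 94.1 CPM in input and 84.9 and 77.0 CPM in IP in the GIT1p cytosol (log2 0.19 ± 0.15, edgeR adjusted p = 0.27). TIM11 of the ATP synthase showed the reverse, at 61.1 and 57.4 RPM in input and 58.3 RPM in both IPs in the HEL2-FTP cytosol (log2 -0.02 ± 0.094) and at 52.0 and 61.1 CPM in input and 15.9 and 16.7 CPM in IP in the SRP72p cytosol (log2 -1.74 ± 0.16).

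Complex II, which oxidises succinate to fumarate and is shared with the tricarboxylic acid cycle, and NDI1 held the exceptions. SDH1 (YKL148C, chromosome XI from 169207 to 171129 in R64) encodes the flavoprotein subunit with the active site, and with the scaling used here it was lower in none of the 6 comparisons. It stood at 194 and 186 RPM in the HEL2-FTP cytosolic inputs and 240 and 249 RPM in the IPs, with no overlap. The log2 difference was 0.37 ± 0.045 (limma adjusted p = 8.1e-06) and turned to -0.09 when each library was centred on its median, which also made the membrane value a lower call (-0.12, limma adjusted p = 0.0227). With scaling by library size alone SDH1 was lower in the GIT1p cytosol (-0.35, edgeR adjusted p = 0.00856). SDH1 also stood higher in the SRP72p membrane IPs, at 289 and 283 CPM against 207 and 243 CPM (log2 0.50 ± 0.096, edgeR adjusted p = 0.0004). In the GIT1p membrane fraction its value of 0.27 (edgeR adjusted p = 0.023) turned to -0.17 with scaling by library size alone and lost its call without membrane input replicate 2 or either membrane IP. NDI1 (YML120C, chromosome XIII from 28266 to 29807) was called in none of the 6 comparisons with the scaling used here. Its levels were 171 and 163 RPM in the HEL2-FTP cytosolic inputs and 174 and 165 RPM in the IPs, and 161 and 179 CPM against 166 and 168 CPM in the SRP72p cytosol, with overlap in both. The 6 log2 differences of NDI1 ran from -0.06 to 0.07, each with a standard error of 0.048 to 0.096, but other scalings made it lower. With median centring NDI1 was at -0.43 and -0.29 in the HEL2-FTP cytosol and membrane fraction (limma adjusted p = 2.71e-06 and 7.55e-05), and with library size alone at -0.36 in the GIT1p membrane fraction (edgeR adjusted p = 0.00576). The iron-sulfur subunit SDH2 and the membrane anchors SDH3 and SDH4 were lower in 5, 6 and 4 of the 6 comparisons. In the SRP72p cytosol SDH2 stood at 132 and 124 CPM in input and 52.5 and 57.8 CPM in IP.

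The proteins encoded by the 39 genes are mostly short, and their IP/input differences moved with coding length. Across the 39 genes Spearman's rho between coding length and the log2 difference was 0.61 in the HEL2-FTP cytosol, and across all 5532 genes it was 0.65. The values were 0.56 and 0.60 in the HEL2-FTP membrane fraction, 0.64 and 0.54 in the SRP72p cytosol, 0.56 and 0.50 in the SRP72p membrane fraction, 0.37 and 0.47 in the GIT1p cytosol, and 0.45 and 0.47 in the GIT1p membrane fraction. These correlations are across genes that share libraries, and genes are not independent replicates. In the HEL2-FTP cytosol the 11 genes under 100 codons had a median of -1.25, against -1.08 for all 191 genes of that length, and 10 of the 11 were lower against 80.1%. The 16 genes of 100 to 199 codons had a median of -1.34 against -0.83, and all 16 were lower against 73.2%. The 4 genes of 200 to 299 codons had a median of -0.38 against -0.45. The 8 genes of 300 codons or more had a median of -0.11, whereas all 3719 genes of that length had a median of 0.85, and 4 of the 8 were lower against 19.6%. In the HEL2-FTP cytosol the IP/input difference also moved with the input level per codon. Its rho was -0.34 across the 39 genes and -0.63 across all genes. The values were -0.30 and -0.56 in the HEL2-FTP membrane fraction and -0.26 and -0.61 in the SRP72p cytosol. They were -0.15 and -0.47 in the SRP72p membrane fraction. In the GIT1p cytosol they were 0.04 and -0.57, and in its membrane fraction -0.03 and -0.40. The input enters both quantities, so a negative rho can be partly built in. The part of coding length and of input level in the low ratios was not tested.

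**Figure D2:**
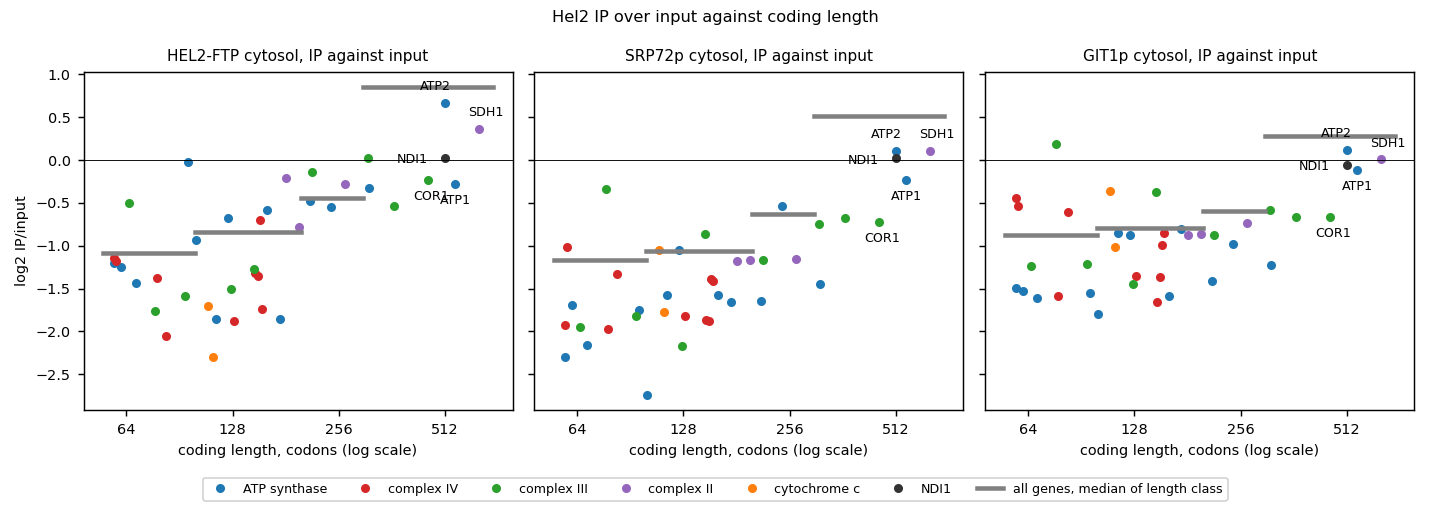
Log2 difference between Hel2 IP and input in the cytosol (vertical axis) against coding length in codons (horizontal axis, log scale) for the 39 genes in 3 panels, 1 per strain, coloured by complex, with grey bars for the median of all genes in each length class. In HEL2-FTP the grey bar rises from -1.08 under 100 codons to 0.85 at 300 codons or more, and the 8 longest of the 39 genes have a median of -0.11.

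Position along the message was examined in HEL2-FTP, whose files give RPM along each coding sequence. Footprints at codons 6 to 60 were set against all later ones (codon 61 onward, leaving out the last 5), and the log2 early/late ratio was compared between IP and input with limma. Of the 39 genes 35 could be tested, and ATP15, ATP18, COX7 and COX9, with 59 to 62 codons, could not. In the cytosol 7 genes had relatively more early footprints in the IP and 3 had fewer, against 35.0% and 4.79% of the 4992 genes tested, with medians of 0.09 and 0.35. In the membrane fraction the counts were again 7 and 3, against 38.2% and 3.49%, with medians of 0.10 and 0.40. The largest rise in both was that of NDI1, at 1.10 ± 0.15 (limma adjusted p = 0.0016) in the cytosol and 0.96 (limma adjusted p = 0.0023) in the membrane fraction. ATP1, ATP2, SDH1 and COR1 also rose in both, by 0.81, 0.77, 0.71 and 0.71 in the cytosol. The genes that fell in both were ATP14, the gene for stalk subunit h, and COX5A, at -0.56 and -0.54 in the cytosol, while COX5B at -0.78 ± 0.2 fell in the cytosol (limma adjusted p = 0.016) and was at -0.51 in the membrane fraction (limma adjusted p = 0.072). NDI1, ATP1 and SDH1 kept their calls in both fractions without each library in turn. The count of 10 fell to 6 without cytosolic input or IP replicate 1 and to 5 without cytosolic IP replicate 2, and to 4 or 5 without any of the membrane libraries.

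The 8 genes of 300 codons or more were also divided into windows of 50 codons. The files spread each read over about 35 positions, so windows and not single codons are described. For NDI1 the opening 50 codons held 7.12% and 6.55% of its footprints in the cytosolic inputs and 14.7% and 13.6% in the IPs. ATP1 had 7.98% and 9.00% in input and 15.8% and 17.3% in IP, and ATP2 had 5.16% and 5.50% against 9.24% and 9.92%. SDH1 had 7.84% and 7.74% against 12.3% and 12.1% in that window, and 10.6% in both inputs against 17.4% and 17.1% at codons 51 to 100. In each of these 4 genes both IPs lay above both inputs. ATP3 ran the other way, with 10.4% and 9.64% in input and 8.15% and 7.60% in IP. The opening window was higher in both IP replicates for 6 of the 8 genes in the cytosol and 7 of 8 in the membrane fraction, and lower for ATP3 in both. The last whole window was lower in 7 of 8 genes in both fractions, ATP3 again being the exception. Such a shift was common among long genes: of the 3418 genes of 300 codons or more tested for early/late footprints, 47.3% rose in the cytosol and 51.9% in the membrane fraction, with medians of 0.56 and 0.63, and of the 8 described here 5 rose in both, with medians of 0.71 and 0.54. Toward the end of ATP2, codons 401 to 450 held 11.6% and 11.1% of its input footprints and 6.29% and 5.63% of its IP footprints.

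**Figure D3:**
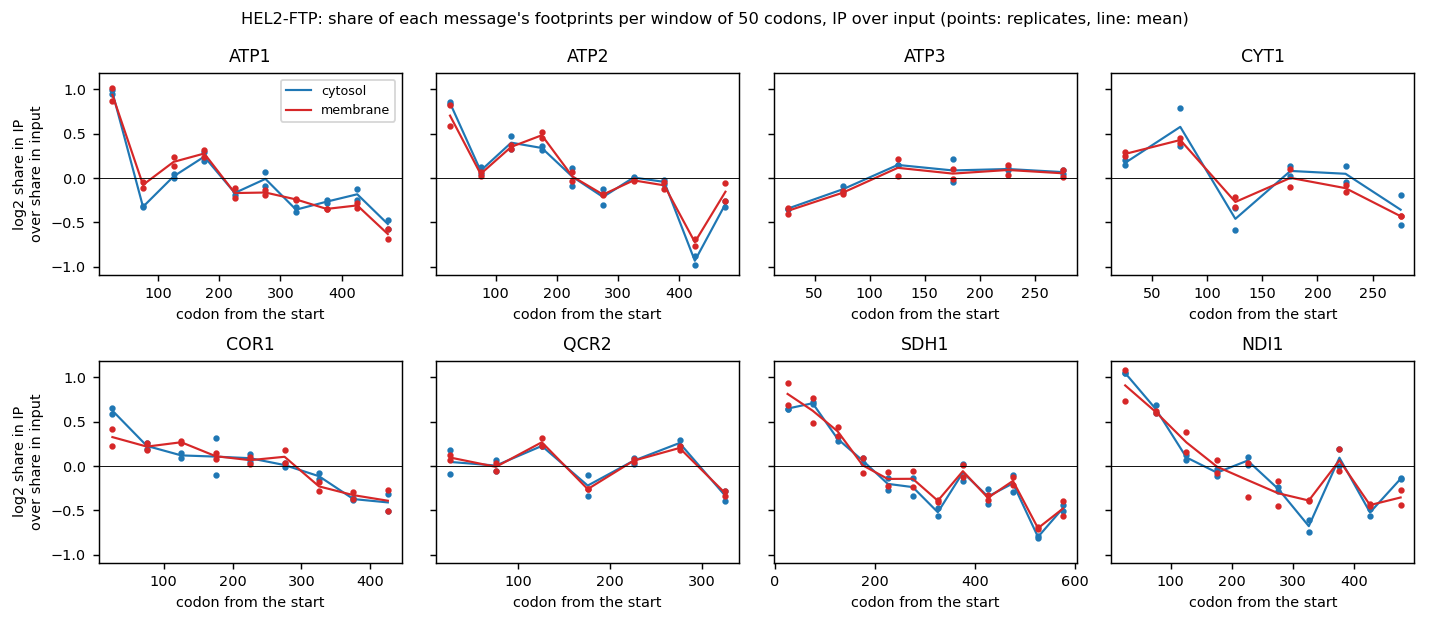
Log2 ratio of the share of a gene's footprints in each 50-codon window in the Hel2 IP over that in the input (vertical axis), against distance from the start codon (horizontal axis, codons), for the 8 genes of 300 codons or more in HEL2-FTP. Blue marks the cytosol and red the membrane fraction, and the mean of the opening window runs from -0.34 (ATP3) to 1.05 in the cytosol.

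Membrane and cytosolic inputs were compared to ask whether ribosomes on these messages sedimented with membranes, since some messages for mitochondrial proteins are translated at the organelle's surface. Most of the 39 genes lay slightly on the cytosolic side. In HEL2-FTP 23 were lower in the membrane input and 3 higher, against 33.0% and 21.2% of all 5532 genes, with medians of -0.22 and -0.13, and 25 of the 39 lay below the median of all genes. With median centring 35 were lower and 1 higher, and over all genes 4143 were lower and 1011 higher. In SRP72p 7 were lower and none higher, against 4.92% and 15.9% of 5714 genes, with medians of -0.24 and -0.04. In GIT1p none was lower and 1 was higher, against 0.210% and 16.5%, with medians of -0.09 and -0.02. At an unadjusted p under 0.05, edgeR gave 6 lower and 2 higher in GIT1p and 16 lower and 1 higher in SRP72p. DESeq2 called 7 lower and none higher in GIT1p and 24 lower and none higher in SRP72p. In sign alone, 31 of the 39 genes were below 0 in all 3 strains and 3 were above 0 in all 3, ATP2, SDH1 and SDH3. The medians of all genes were also below 0 in all 3, and the matching sign counts over all genes are not given here.

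ATP2 stood at 839 and 864 RPM in the cytosolic and 1058 and 1043 RPM in the membrane inputs of HEL2-FTP, without overlap (log2 0.30 ± 0.046, limma adjusted p = 0.00017). It was also the gene higher in GIT1p, at 864 and 884 CPM against 1028 and 999 CPM (log2 0.33 ± 0.1, edgeR adjusted p = 0.035), a call lost with DESeq2 and without any of the 4 input libraries, and in SRP72p it was at 822 and 789 CPM against 920 and 1017 CPM (log2 0.26 ± 0.1, edgeR adjusted p = 0.098). SDH1 was higher in the HEL2-FTP membrane inputs, at 251 and 249 RPM against 194 and 186 RPM (log2 0.40 ± 0.045, limma adjusted p = 1.3e-05). The third gene higher there was CYT1, at 233 and 225 RPM against 206 and 187 RPM (log2 0.22 ± 0.062, limma adjusted p = 0.011), whose value turned to -0.06 with median centring and lost its call without cytosolic input replicate 2 or membrane input replicate 1. The largest falls in HEL2-FTP were those of QCR9 at -0.54 ± 0.1, COX12 at -0.40 ± 0.057 and COX4 at -0.38 ± 0.045. QCR9, a small subunit of complex III, stood at 60.3 and 65.6 RPM in the cytosolic and 47.6 and 38.8 RPM in the membrane inputs. In SRP72p the genes that fell were COX12 at -0.51, ATP17 at -0.49, QCR8 at -0.43, COX4 at -0.40, QCR7 at -0.38, SDH4 at -0.33 and ATP3 at -0.32. That count was 4 without membrane replicate 1, the library with more mitochondrially encoded footprints, 15 without membrane replicate 2, and 29 and 24 without cytosolic replicates 1 and 2. COX12, QCR8 and ATP3 kept their calls in each of these 4 cases. Across the 39 genes the difference in HEL2-FTP also moved with coding length, with a rho of 0.54 against 0.33 across all genes.

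**Figure D4:**
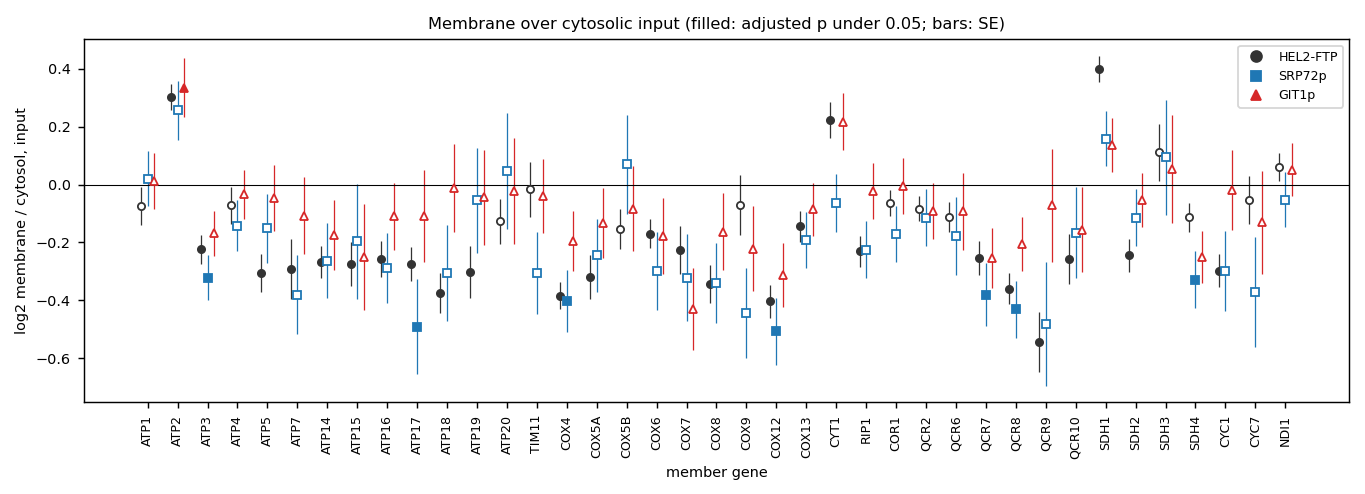
Log2 difference between membrane and cytosolic inputs (vertical axis) for the 39 genes (horizontal axis) in HEL2-FTP (black circles), SRP72p (blue squares) and GIT1p (red triangles), with n = 2 libraries per group, bars for the standard error and filled symbols for an adjusted p under 0.05. Of the 39 genes 31 lie below 0 in all 3 strains, and ATP2, SDH1 and SDH3 lie above 0 in all 3. The medians of all genes are also below 0 in all 3 strains.

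By contrast, a list of genes for other redox enzymes, which were not among the 39, lay on the membrane side. The list held NDE1, NDE2, GUT2, DLD1, DLD2, CYB2, MCR1, YAH1 and ARH1, not all of which feed electrons to the chain. Of 9 such genes 8, 7 and 7 were higher in the membrane inputs of HEL2-FTP, SRP72p and GIT1p, with medians of 1.21, 1.10 and 0.92. NDE1, the NADH dehydrogenase that faces the cytosol, led them at 2.28, 1.59 and 1.75. Of 31 genes for mitochondrial protein import 8, 6 and 7 were higher and 14, 3 and 0 lower, against 21.2%, 15.9% and 16.5% higher and 33.0%, 4.92% and 0.210% lower over all genes, and the medians of the list were -0.17, -0.13 and 0.00. The largest rise in it was that of TOM70, an import receptor anchored in the outer membrane, at 2.93, 1.84 and 2.14.

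The IP/input ratio at the membrane was tested against that in the cytosol, a difference between ratios that share libraries with the comparisons above. In HEL2-FTP the ratio was higher at the membrane for 7 of the 39 genes and lower for 3, against 3.31% and 25.9% of all genes, with medians of 0.17 and -0.11. The 7 were COX12 at 0.34 ± 0.081, COX8 at 0.31, COX4 at 0.24, SDH2 at 0.24, COX13 at 0.23, CYC1 at 0.23 and QCR6 at 0.21, and the 3 were CYT1 at -0.28, ATP2 at -0.20 and SDH1 at -0.19. With median centring the counts were 21 and 0. COX12 kept its call without each library in turn, whereas the count of 10 fell to between 3 and 8, and to 3 without cytosolic IP replicate 1, either membrane input or membrane IP replicate 2, to 5 without cytosolic IP replicate 2 and to 6 without cytosolic input replicate 1. In SRP72p the ratio was higher at the membrane for 13 and lower for 1, against 8.47% and 14.5%, with medians of 0.34 and -0.03. QCR9 at 1.14, ATP18 at 1.11 and SDH4 at 1.07 had the largest differences. SDH4 had 77.8 and 84.0 CPM in the cytosolic input and 34.2 and 34.7 CPM in the IP, but 64.6 and 65.2 CPM in the membrane input and 55.2 and 52.6 CPM in the IP (difference in log2 ratio 1.07 ± 0.15, edgeR adjusted p = 9.7e-05). The count of 14 fell to 7 without cytosolic IP replicate 1, to 9 without membrane input or IP replicate 1 and to 8 without membrane IP replicate 2, while SDH4, RIP1 and COX5A kept their calls in each case. The single gene lower was ATP2 at -0.57 ± 0.15 (edgeR adjusted p = 0.01). In GIT1p the counts were 4 higher and 1 lower, against 2.77% and 15.8%, with medians of 0.13 and -0.08. RIP1 led there at 0.78 ± 0.14 (edgeR adjusted p = 0.00077), with 203 and 209 CPM in the cytosolic input, 99.3 and 76.5 CPM in its IP, 184 and 190 CPM in the membrane input and 124 and 134 CPM in its IP. TIM11 at 0.71, COX13 at 0.55 and SDH4 at 0.51 were the other genes higher, and ATP2 was again the gene lower, at -0.50 ± 0.15 (edgeR adjusted p = 0.024). ATP2 was thus lower in all 3 strains, though its call was lost without any of 6 libraries in HEL2-FTP, without either cytosolic input in SRP72p and without any of 7 libraries in GIT1p. The GIT1p count of 5 fell to 2 without cytosolic input replicate 1, either cytosolic IP or membrane input replicate 2, and to 3 without cytosolic input replicate 2 or replicate 1 of the membrane input or IP. Across the 39 genes this difference in HEL2-FTP ran against coding length, with a rho of -0.67 against -0.35 across all genes. The rho was -0.24 against -0.27 in SRP72p and 0.15 against -0.12 in GIT1p. The part of length in the difference was not tested.

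Inputs labelled GIT1p were compared with inputs labelled SRP72p to describe how these genes differed between the labels. The promoter exchange of SRP72 cannot be told apart here from the differences in LEU2, HIS3, TRP1 and mitochondrially encoded genes. In the cytosol 5 of the 39 genes were higher in GIT1p and 6 lower, against 13.4% and 12.4% of all genes, with medians of -0.07 and 0.01. With scaling by library size the split was 10 and 1, and with DESeq2's size factors in edgeR it was 4 and 12. The count of 11 fell to 6 without SRP72p cytosolic input replicate 1 or GIT1p cytosolic input replicate 2. In the membrane fraction 5 were higher and 2 lower, against 12.0% and 6.30%, with medians of 0.09 and 0.05, and with the size factors the split was 4 and 5. The genes named next kept their direction under each of these scalings.

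Cytochrome c showed the largest difference. CYC1 stood at 376 and 399 CPM in the SRP72p and 210 and 205 CPM in the GIT1p cytosolic inputs, with no overlap (log2 -1.09 ± 0.14, edgeR adjusted p = 6.8e-05). In the membrane inputs it stood at 281 and 355 CPM against 196 and 180 CPM (log2 -0.81 ± 0.14, edgeR adjusted p = 0.00092). CYC1 kept its call under every setting tried, between -1.23 and -0.90 in the cytosol and between -0.94 and -0.76 in the membrane fraction. CYC7 lay the other way, at 121 and 108 CPM against 179 and 166 CPM in the cytosol (log2 0.41 ± 0.18, edgeR adjusted p = 0.12) and at 68.9 and 111 CPM against 151 and 139 CPM in the membrane fraction (log2 0.65 ± 0.19, edgeR adjusted p = 0.025), a call lost without replicate 1 of the SRP72p or either replicate of the GIT1p membrane inputs. Per codon, the ratio of CYC7 to CYC1 ran from 0.236 to 0.309 in the 4 SRP72p inputs and from 0.743 to 0.825 in the 4 GIT1p inputs, which did not overlap. In the IPs it ran from 0.117 to 0.181 in SRP72p and from 0.445 to 0.585 in GIT1p, in each strain below its inputs. The ratio in HEL2-FTP was 0.167 to 0.200 in the inputs and 0.103 to 0.124 in the IPs.

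The other pair of oxygen-regulated isoforms moved in the same sense. COX5A stood at 157 and 130 CPM in the SRP72p and 121 and 122 CPM in the GIT1p cytosolic inputs (log2 -0.43 ± 0.12, edgeR adjusted p = 0.018). COX5B stood at 34.6 and 31.2 CPM against 52.8 and 52.9 CPM (log2 0.50 ± 0.16, edgeR adjusted p = 0.033). Per codon, COX5B over COX5A ran from 0.217 to 0.358 in the SRP72p inputs and from 0.414 to 0.515 in the GIT1p inputs. The calls were less firm than that of CYC1: COX5B was lost with DESeq2 (0.36, adjusted p = 0.218) and with its size factors in edgeR (0.36, adjusted p = 0.115), and COX5A with scaling by library size (-0.24, edgeR adjusted p = 0.214). COX5B was also lost without any of the 4 cytosolic inputs, and COX5A without any but SRP72p replicate 2. In the membrane inputs neither passed, at -0.32 for COX5A and 0.34 for COX5B (edgeR adjusted p = 0.089 and 0.15).

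Succinate dehydrogenase was higher in GIT1p for 3 of its 4 genes in both fractions, with medians of 0.47 in the cytosol and 0.50 in the membrane fraction. SDH1 stood at 201 and 199 CPM in the SRP72p and 323 and 319 CPM in the GIT1p cytosolic inputs (log2 0.49 ± 0.095, edgeR adjusted p = 0.0016). SDH2 stood at 132 and 124 CPM against 216 and 218 CPM (log2 0.57 ± 0.096, edgeR adjusted p = 0.00057). SDH4 stood at 77.8 and 84.0 CPM against 127 and 124 CPM (log2 0.44 ± 0.094, edgeR adjusted p = 0.0031). SDH3 stood at 81.8 and 94.1 CPM against 119 and 118 CPM in the cytosol. It did not pass the test, with a log2 difference of 0.24 ± 0.19 (edgeR adjusted p = 0.41). SDH1 and SDH2 kept their calls under every setting in both fractions, and SDH4 lost its call in the cytosol with DESeq2 alone (0.30, adjusted p = 0.065). In complex III the direction was the opposite for CYT1 at -0.48, RIP1 at -0.43 and QCR6 at -0.53 in the cytosol, and each of these lost its call with scaling by library size, at -0.29, -0.24 and -0.34. In complex IV, COX13 was at 0.42 ± 0.094 in the cytosol and 0.52 in the membrane fraction. In the ATP synthase ATP17 was the single gene called, lower in the cytosol at -0.46 (edgeR adjusted p = 0.048), and none was called in the membrane fraction.

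**Figure D5:**
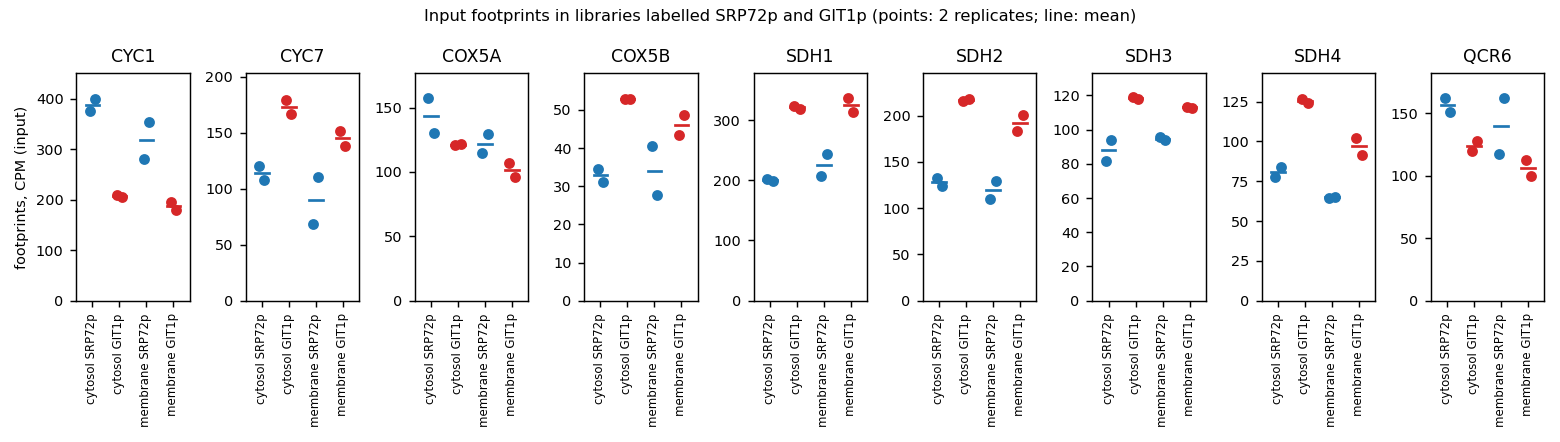
CPM in the cytosolic and membrane inputs (vertical axis) of 9 genes in libraries labelled SRP72p (blue) and GIT1p (red), with a point per replicate and a line at the mean (n = 2). CYC1 lies at 376 and 399 CPM in SRP72p and at 210 and 205 CPM in GIT1p in the cytosol, while SDH1, SDH2 and SDH4 lie higher in GIT1p.

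Of 11 listed regulators of these genes 2 were higher in GIT1p in each fraction, against 13.4% and 12.0% of all genes, and their medians were 0.06 in the cytosol and -0.18 in the membrane fraction. MIG1, a repressor active in glucose, stood at 32.5 and 34.5 CPM in the SRP72p and 64.6 and 60.9 CPM in the GIT1p cytosolic inputs (log2 0.71 ± 0.13, edgeR adjusted p = 0.00121). CAT8, an activator of genes used after glucose is spent, stood at 5.41 and 6.25 CPM against 13.9 and 15.4 CPM (log2 1.13 ± 0.34, edgeR adjusted p = 0.0261), and in the membrane inputs its value was 0.74 (edgeR adjusted p = 0.130). MIG1 was the other regulator higher there, at 0.49 (edgeR adjusted p = 0.017). In the membrane inputs HAP4, the limiting subunit of the activator of respiratory genes, stood at 55.3 and 51.4 CPM against 74.6 and 76.8 CPM (log2 0.44 ± 0.14, edgeR adjusted p = 0.0413), and in the cytosol its value was 0.30 (edgeR adjusted p = 0.121). HAP2 and HAP3, which encode other subunits of that activator, were at -0.49 and -0.82 in the membrane inputs and did not pass (edgeR adjusted p = 0.151 and 0.306). HAP5, which encodes the remaining subunit, lay the other way at 0.94 and did not pass either (edgeR adjusted p = 0.112). HAP1, the haem-responsive activator of CYC1 and CYC7, stood at 62.2 and 47.4 CPM against 43.0 and 39.6 CPM in the cytosol and did not pass in either fraction, nor did ROX1, the repressor of hypoxic genes. In SRP72p membrane input replicate 1 HAP1 stood at 170 CPM, against 32.5 CPM in replicate 2.

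The cytosolic IP/input ratio in GIT1p was tested against that in SRP72p. It was higher in GIT1p for 9 of the 39 genes and lower for 1, against 8.37% and 2.71% of all genes, with medians of 0.40 and 0.06. With scaling by library size the counts were 1 and 1. Without SRP72p cytosolic IP replicate 1 the count of 10 fell to 1, without GIT1p cytosolic inputs 1 and 2 to 3 and 2, and without either GIT1p cytosolic IP to 6. In the SRP72p cytosolic IPs 35 of the 39 genes were lower in replicate 1 than in replicate 2, and in the GIT1p cytosolic IPs 8 were. COX9, the gene for subunit VIIa of complex IV, led at 1.48 ± 0.23 (edgeR adjusted p = 0.0011), and kept its call without each library in turn, with 85.1 and 102 CPM in input and 20.9 and 26.4 CPM in IP in SRP72p, and 97.9 and 114 CPM in input and 66.7 and 54.7 CPM in IP in GIT1p. ATP17 followed at 0.94 ± 0.26 and ATP7 at 0.84 ± 0.2, and ATP4, the gene for stalk subunit b, was the gene lower, at -0.45 ± 0.12 (edgeR adjusted p = 0.035). At the membrane QCR10 was higher in GIT1p and no gene was lower, against 1.07% and 1.38% of all genes, with medians of 0.07 and -0.06. QCR10 stood at 69.1 and 81.6 CPM in input and 36.1 and 34.7 CPM in IP in SRP72p, and at 74.2 and 76.1 CPM in input and 67.8 and 76.1 CPM in IP in GIT1p (difference in log2 ratio 1.30 ± 0.23, edgeR adjusted p = 0.0087). QCR10 lost its call without GIT1p membrane input replicate 1, and the count was 3 without SRP72p membrane input replicate 1. At an unadjusted p under 0.05 edgeR gave 7 higher and 2 lower, and DESeq2 called 6 higher and none lower. Scaling by library size turned the balance, with 1 higher and 4 lower and a median of -0.22, as over all genes, of which 48 were higher and 636 lower. Across the 39 genes the cytosolic difference ran against coding length, with a rho of -0.67 against -0.23 across all genes, and the part of length was not tested.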

How the data were processed

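Ribosome footprints from 24 libraries were used. Per the submitters' processing notes, CASAVA 1.8, UMI-tools, Bowtie2 and TopHat were used with genome build sacCer3; other steps are not given in the sources used here. For HEL2-FTP the authors deposited RPM along each coding sequence, each library summing to 999421 to 999937, and in 74.1% to 80.8% of low gene sums the values were whole reads on the estimated worth of 1 read. For SRP72p and GIT1p the authors deposited raw counts per gene, scaled here to CPM for printed levels. The RPKM the authors deposited beside those counts, and a deposited ratio per position, entered no test.

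For RPM, limma 3.58.1 was run on log2(RPM + 0.5) over the 5532 genes that averaged 1 RPM or more; folds of low genes are understated on that scale. The planned count test could not be run on RPM. Counts were tested with edgeR 4.0.16 (quasi-likelihood, TMM scaling, default filter, 5714 genes) in R 4.3.3. All groups of a file type entered the same fit, with no term for replicate number. Genes were called at a Benjamini-Hochberg adjusted p under 0.05 over all genes tested. Early/late ratios needed at least 20 footprints in each window. In simulated data edgeR recovered 80% of genes changed by 1 on the log2 scale and 99% of those changed by 2 among 5640 genes (SRP72p cytosol, IP against input). The simulation gave all genes the same dispersion and changed few of them, unlike the real libraries, so recovery there may differ. Replicates in the 8 count groups varied beyond counting error (chi-square over degrees of freedom, 2.13 to 78.3). Same-numbered libraries were not taken as pairs, since labels name no shared source. Alternatives were other scalings, filters, pseudocounts, DESeq2 1.42.0, a replicate block and leaving out each library.

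Symbols and coordinates came from RefSeq, assembly R64. The members and lists were chosen with earlier results of these data known. Any of the 39 genes could be named: values per library are given for ATP1, ATP2, ATP3, ATP16, COR1, RIP1, CYT1, COX4, COX5A, COX5B, SDH1, CYC1, CYC7 and NDI1 where a comparison turns on them, and for up to 3 called genes with the largest rise and fall per comparison; others were named after their values were seen.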

Additional observations from a re-analysis of the deposited data

Results flagged for a closer look

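The difference between the membrane and the cytosolic IP/input ratio passed its test for 10 of the 39 genes in HEL2-FTP (7 higher at the membrane and 3 lower), 14 in SRP72p (13 and 1) and 5 in GIT1p (4 and 1). Over all genes 3.31% were higher and 25.9% lower at the membrane in HEL2-FTP, 8.47% and 14.5% in SRP72p, and 2.77% and 15.8% in GIT1p. With 1 library left out the counts were between 3 and 8 in HEL2-FTP, 7 and 17 in SRP72p, and 2 and 4 in GIT1p. In HEL2-FTP the log2 ratio was higher at the membrane by 0.34 for COX12, 0.31 for COX8 and 0.24 for SDH2, and the difference was -0.28 (-0.285) for CYT1, -0.20 for ATP2 and -0.19 for SDH1. In SRP72p it was 1.14 for QCR9, 1.11 for ATP18, 1.07 for SDH4 and -0.57 for ATP2. In GIT1p it was 0.78 for RIP1, 0.71 for TIM11, 0.55 for COX13 and -0.50 for ATP2.

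The difference in the cytosolic IP/input ratio between libraries labelled GIT1p and SRP72p passed its test for 10 of the 39 genes (9 higher in GIT1p and 1 lower), against 8.37% higher and 2.71% lower over all genes. The count was 2 with scaling by library size (1 higher and 1 lower), 3 with no filter on low counts, and between 1 and 10 when 1 library was left out, 1 being the value without SRP72p cytosolic IP replicate 1. The log2 differences were 1.48 for COX9, 0.94 for ATP17, 0.84 for ATP7 and -0.45 for ATP4. At the membrane it passed for 1 gene, QCR10, at 1.30, against 1.07% higher and 1.38% lower over all genes. These differences between labels fall on the same libraries as the differences in LEU2, HIS3 and TRP1 and cannot be told apart from them. In groups of 2 libraries, replicates that differ cannot show which of them departs from its group.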

How the results depend on the processing

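Among 2908 values of single genes under the alternatives, 2594 kept their direction and side of the threshold, 213 lost and 91 gained a call, and 10 changed sign. With median centring of the HEL2-FTP libraries the reversed values were CYT1 -0.057 and NDI1 -0.22 between inputs, CYT1 -0.43, SDH1 -0.088 and NDI1 -0.43 for cytosolic IP/input, and SDH1 -0.12 and NDI1 -0.29 for membrane IP/input. With library size only they were SDH1 -0.35 (GIT1p cytosolic IP/input), SDH1 -0.17 and NDI1 -0.36 (GIT1p membrane IP/input). The cause was not tested.

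The number of the 39 genes called moved as follows. Median centring gave 21 for HEL2-FTP IP/input at membrane against cytosol, and it shifted the median of all genes by -0.45 in the cytosolic and -0.29 in the membrane IP/input, with 1 higher and 37 lower in both. For SRP72p inputs DESeq2 gave 24 and its size factors in edgeR 26, and for GIT1p inputs DESeq2 gave 7, library size 6, size factors 7 and no filter 3. Library size gave 8 and 3 for IP/input at membrane against cytosol in SRP72p and GIT1p. For cytosolic IP/input between labels library size gave 2 and no filter 3, and at the membrane DESeq2 gave 6, library size 5 (1 higher and 4 lower) and size factors 3. Library size shifted the median of all genes by -0.36 and -0.44 in the GIT1p cytosolic and membrane IP/input, with none higher and 37 lower in both, and size factors gave 3 higher and 28 lower at the membrane (shift 0.22).

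Leaving out 1 library gave 18 to 25 for HEL2-FTP inputs, 35 to 36 and 33 to 36 for its cytosolic and membrane IP/input, 3 to 8 for their difference, and 5 to 9 and 4 to 5 for early/late footprints. It gave 4 to 29 for SRP72p inputs, 0 to 1 for GIT1p inputs, 34 to 36, 34 to 37, 31 to 33 and 32 to 33 for IP/input (SRP72p cytosol and membrane, GIT1p cytosol and membrane), and 7 to 17 and 2 to 4 for the differences between fractions. Between labels it gave 6 to 11 and 5 to 8 for cytosolic and membrane inputs and 1 to 10 and 0 to 3 for IP/input. A lone library left in a group was assumed to vary like the others.

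With the replicate number as a block, 286 of 291 single values kept their call, 3 gained and 2 lost it, and counts were 26 for HEL2-FTP inputs, 15 for its difference between fractions and 14 for membrane early/late footprints. Same-numbered libraries correlated at 0.421 (HEL2-FTP cytosolic IP/input) and at -0.429 (membrane inputs between labels). For the latter, crossed numbers left 7 of the 39 genes called.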

Other observations

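Genes that serve the respiratory chain without being part of it were described from fixed lists, beside the shares of all genes given above. In the HEL2-FTP cytosol 15 of 23 genes for the assembly of complex IV were lower in the Hel2 IP and 6 higher (limma). Their median was -0.56. Another list joined genes for the assembly of complexes II and III, the cytochrome haem lyases and the synthesis of ubiquinone (the COQ genes). Of its 20 genes 14 were lower and 3 higher, with a median of -0.89. The list for the ATP synthase mixed assembly genes, inhibitor-related genes (INH1, STF1 and STF2) and genes acting on its mitochondrial messages, such as AEP1. This mixed list was divided, with 8 of 15 higher and 7 lower and a median of 0.62. Of 31 genes for mitochondrial protein import 20 were lower and 8 higher. TIM8 and TIM12, which encode small chaperones of the intermembrane space, were at -1.93 ± 0.092 and -1.79 ± 0.097, while TIM54, which encodes a larger subunit of an inner membrane translocase, was at 1.70 ± 0.06. Genes for factors that act on mitochondrial COX, COB and ATP messages lay on the other side from the chain's own subunits. Most are translation activators, with factors of message processing such as CBP2 among them. Of 12 such genes 8 were higher and 1 lower, with a median of 1.34. PET111 and PET122, which act on the COX2 and COX3 messages, were at 2.91 ± 0.1 and 2.89 ± 0.082. The coding lengths of these lists were not compared, and their part was not tested.

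Between the labels, protein import genes were lower in the GIT1p cytosolic inputs for 14 of 31 genes, with a median of -0.40 against 0.01 for all genes, and for 6 in the membrane inputs, with a median of -0.21 against 0.05. TOM71, which encodes a minor import receptor, was at -1.09 ± 0.15 in the cytosol (edgeR adjusted p = 0.000128). Genes of the tricarboxylic acid cycle, of which succinate dehydrogenase was counted apart, were higher in the GIT1p membrane inputs for 7 of 13, with a median of 0.29. LSC2, which encodes a subunit of succinyl-CoA ligase, was at 0.64 ± 0.093 in the cytosol and 0.69 ± 0.093 in the membrane fraction, and CIT3, a mitochondrial citrate synthase, at 1.35 ± 0.47 and 2.39 ± 0.49 (edgeR adjusted p = 0.0464 and 0.00315).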
